A study of Drosophila melanogaster with 4 samples.

Results

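The regions described here are the stretches of open chromatin called within 500 kb of 4 chromosome ends of Drosophila melanogaster. A called peak belonged to them when its summit lay in the first 500000 bp of chromosome arms 2L, 3L or X, or on 3R from position 31579331 to the end (build BDGP6, release 6 coordinates). Peaks of the 4 libraries that shared at least 1 bp were joined, which gave 772 of the 44429 merged regions of the main arms: 217 on 2L, 236 on 3L, 170 on 3R and 149 on X. The choice used positions only, so whether a library had a peak in a region was not part of it.

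The assay was ATAC-seq, which uses a transposase to insert sequencing adapters into accessible DNA, applied to nuclei of thoracic muscle enriched for flight muscle. The animals were pharate adults, formed but still in the pupal case, 96 h after puparium formation at 25 °C, with at least 40 animals pooled per sample. The mutant, w[1118];Pgk[Delta.E2F], carried a Pgk allele in which the E2F binding site upstream of the gene was mutated and is 1 line (line 12), and the control was w[1118], so both carried the w[1118] background. There were 2 libraries of each genotype, called mutant 1 and 2 and control 1 and 2, and the labels do not say more about what separates the replicates, so p-values measure only the spread between these samples. Pgk encodes phosphoglycerate kinase, a glycolytic enzyme, and lies on 2L at 2746880-2753068, outside the end of that arm.

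Fly chromosomes do not end in the short repeats made by telomerase in most animals. Their tips carry arrays of the telomeric retrotransposons HeT-A, TART and TAHRE, followed inward by telomere-associated sequences, which are tandem repeats that come in one family on the left arms of the large autosomes and in another on their right arms and on X. Transgenes inserted next to these repeats are often silenced, which is known as the telomeric position effect. Because a repeat occurs in several copies, a read from one copy can match another, and how such reads were placed is not given in the sources used here.

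The deposited lists held 26186 and 26880 peaks for mutants 1 and 2, against 30300 and 30787 for controls 1 and 2. Pileup counts the reads or fragments covering a position, and which of these was counted is not stated. The background pileup here is the commonest local background among a library's peaks. Recovered from the deposited fold enrichment and −log10 p, it was 4.62 and 5.26 in the mutants, against 7.44 and 7.61 in the controls. List length and depth thus moved with genotype. Their part in each difference below was not tested unless a value at equal depth is given. Of 11 flight muscle marker genes, 9, 10, 10 and 10 had a peak within 500 bp of a gene end in mutant 1, mutant 2, control 1 and control 2. The hemocyte markers Hml and NimC1 had none in any library, 1, 1, 1 and 2 of 4 neuron markers had one, and the tracheal markers trh and btl had one in mutant 1 for 1 gene and in no other library. For fat body 2, 1, 1 and 2 of 3 markers had a peak, for epidermis 1, 0, 1 and 2 of 3, and the glial marker repo had one in every library. Over all main-arm genes 46.0%, 49.7%, 55.3% and 54.8% had a peak at a gene end in the same order of libraries. These counts leave out peaks further inside a gene. Within the whole gene trh had 6, 6, 3 and 7 peaks, btl 2, 2, 3 and 2 and the neuron marker brp 11, 4, 5 and 12, while Hml and NimC1 had 0 in every library. In such mixed tissue, fewer open cells and less signal per cell cannot be told apart.

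The 4 ends held fewer called peaks in the mutants, by about the same proportion as the rest of the arms. Mutants 1 and 2 had 454 and 488 peaks there, against 539 and 538 in controls 1 and 2, so the groups did not overlap. The means were 471 ± 24.0 in mutants and 538.5 ± 0.707 in controls (SD, n = 2 each), a difference of -67.5 peaks (two-sided exact permutation test, p = 0.33, which is the smallest value that 2 libraries against 2 allow). With lists cut to equal length the difference was -13.5 peaks, and with lists scaled to the depth of mutant 1 it was -41.5. The ratio of mutant to control means in the lists as deposited was 0.875 in the ends and 0.869 in the rest of the main arms. As a share of all main-arm peaks, the ends took 1.78% and 1.88% in the mutants, against 1.84% and 1.80% in the controls, which overlapped (two-sided exact permutation test, p = 1).

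The 4 arms differed in how far the libraries stood apart. The 2L end held 149 and 144 peaks in the mutants, against 163 and 149 in the controls, with mutant 1 level with control 2 (difference -9.5, two-sided exact permutation p = 0.667). The 3L end held 116 and 154 peaks in the mutants, against 156 and 162 in the controls, so that mutant 1 stood apart and mutant 2 was close to the controls (difference -24, exact permutation p = 0.33, and -5 without mutant 1). The 3R end held 103 and 93 peaks in the mutants, against 109 and 115 in the controls (difference -14, exact permutation p = 0.33). The X end held 86 and 97 peaks in the mutants, against 111 and 112 in the controls (difference -20, exact permutation p = 0.33). Both mutants thus lay below both controls on 3L, 3R and X. With lists cut to equal length the difference turned to 2.5 on 3R and 1.5 on 2L, and was -5 on 3L and -12.5 on X. With lists scaled to the depth of mutant 1 it was -5 on 2L, -17.5 on 3L, -2 on 3R and -17 on X. On X the called length differed more than the number of peaks: 12.5 and 14.6 kb in the mutants against 20.3 and 20.9 kb in the controls, a ratio of means of 0.656.

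**Figure D1:**
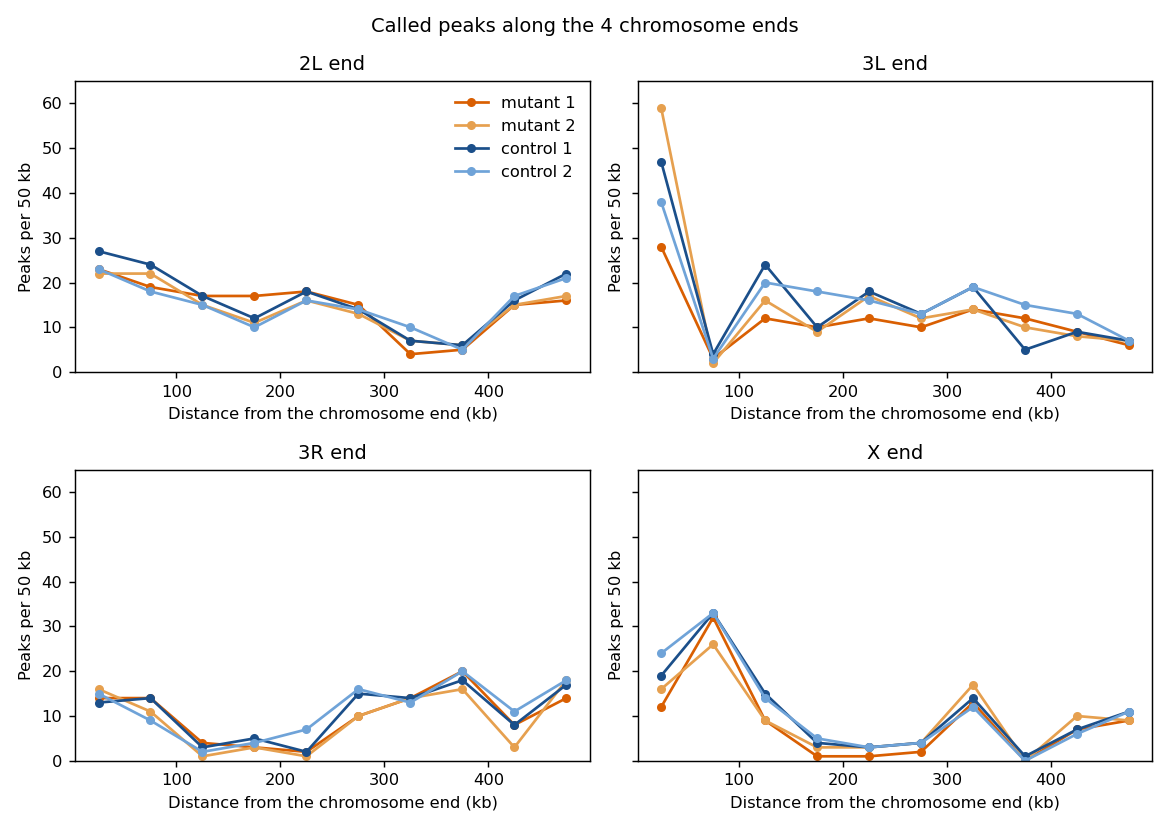
Called peaks per 50 kb (vertical axis) against distance from the chromosome end (kb, horizontal axis) for the 4 ends, with 1 line per library. The outermost 50 kb of 3L range from 28 to 59 peaks between libraries and are followed by 2 to 4 peaks in the next 50 kb, while on X the peaks crowd between 50 and 100 kb.

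Peaks were spread unevenly along each end. On 3L the outermost 50 kb held 28 and 59 peaks in the mutants, against 47 and 38 in the controls, so that the mutants were both the lowest and the highest. The next 50 kb of 3L held 3 and 2 peaks in the mutants, against 4 and 3 in the controls. On X the outermost 50 kb held 12 and 16 peaks in the mutants, against 19 and 24 in the controls, without overlap. Between 100 and 150 kb on X there were 9 in each mutant and 15 and 14 in the controls. Libraries of 1 genotype also differed in single bins of the other arms and further in: at 350 to 400 kb on 3L there were 12 and 10 peaks in the mutants, against 5 and 15 in the controls. At 100 to 150 kb on 3L the mutants, with 12 and 16, were below the controls, with 24 and 20. An almost empty stretch of X lay at 350 to 400 kb, where control 1 had 1 peak and the other libraries 0.

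Presence was then compared region by region. All 4 libraries shared 260 of the 772 regions (33.7%), against 30.3% in the rest of the main arms. In 1 library alone 265 of the 772 regions were called, against 16167 of 43657 in the rest of the main arms. Control-only regions, called in both controls and neither mutant, numbered 42 of the 396 called in both controls (10.6%), against a background of 12.2% over all main-arm regions. Mutant-only regions, the reverse, numbered 9 of the 295 called in both mutants (3.05%), against a background of 5.01%. Exact binomial 95% intervals, which cover counting error only, ran from 7.75% to 14.1% for the control-only share and from 1.40% to 5.71% for the mutant-only share, so the first included its background of 12.2% and the second its background of 5.01%. With peaks joined only at a reciprocal overlap of at least 50%, mutant-only regions numbered 31, and with summits joined within 150 bp, 22. Pairs that mix the genotypes gave counts of the same order: 10 regions were called in mutant 1 and control 1 alone, 23 in mutant 1 and control 2, 27 in mutant 2 and control 1, and 16 in mutant 2 and control 2. With these pairs, the regions called in exactly 2 libraries came to 127. Those called in 3 numbered 120, of which 77 were missing in mutant 1, against 3982 of 6762 in the rest of the main arms.

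Overlap of called base pairs was highest between the controls and did not group the mutants. The Jaccard index, base pairs shared divided by base pairs in either list, was 0.474 between the mutants and 0.605 between the controls. Mutant 1 shared 0.442 with each control, while mutant 2 shared 0.576 with control 1 and 0.539 with control 2. Mutant 2 thus overlapped both controls more than it overlapped mutant 1.

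Control-only regions were distributed unequally over the ends. They made up 4 of 113 regions of both controls on 2L (3.54%, exact binomial 95% interval 0.973% to 8.82%), 11 of 114 on 3L (9.65%, 4.92% to 16.6%), 11 of 80 on 3R (13.8%, 7.07% to 23.3%) and 16 of 89 on X (18.0%, 10.6% to 27.5%). The rest of each arm gave 13.0%, 12.6%, 13.0% and 10.7% in the same order, so the 2L end lay below the rest of its arm, and the X interval just included the 10.7% of the rest of X. The 2L count depended on the setting, with 8 regions at a −log10 q of at least 5 and 15 with a reciprocal overlap of at least 50%. Mutant-only regions numbered 1 on 2L, 4 on 3L, 0 of 62 on 3R, which allows a share of up to 5.78%, and 4 on X. Regions are not replicates of a genotype.

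**Figure D2:**
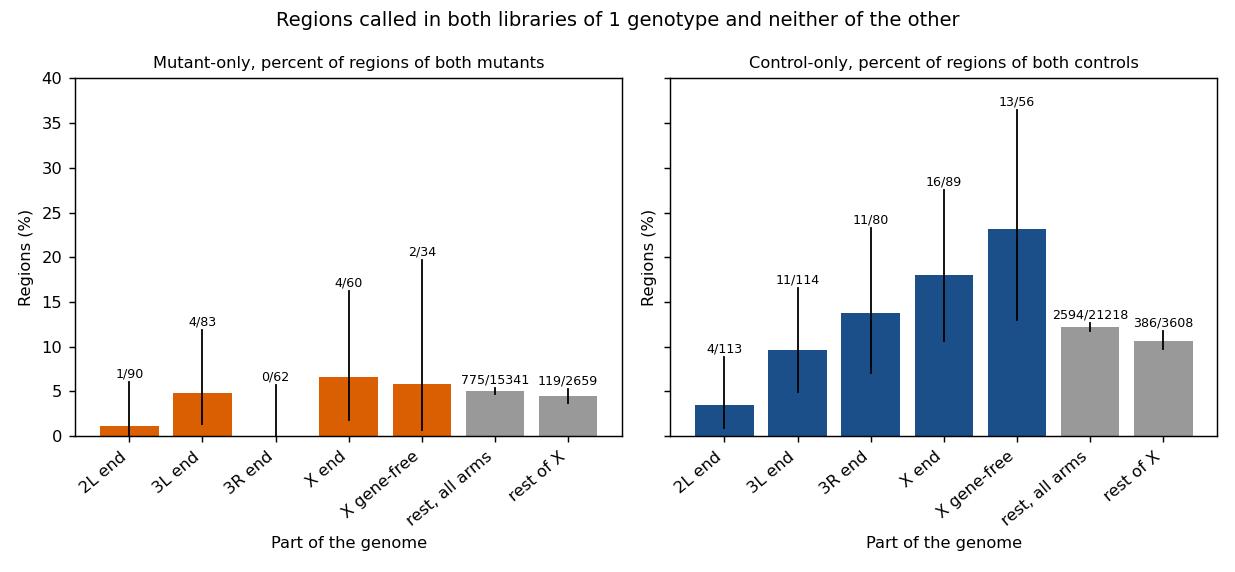
Mutant-only regions as a percent of regions called in both mutants (left) and control-only regions as a percent of regions called in both controls (right) for each end, the X stretch without genes, the rest of the main arms and the rest of X. Lines are exact binomial 95% intervals and fractions give the counts, with the X stretch highest at 13 of 56 control-only regions.

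Of all peaks of controls 1 and 2 in the X end, 63.1% and 64.3% had their summit outside genes. Of the 16 control-only regions of the X end, 13 lay outside genes and in one block near the tip. This block spans 120.3 kb, from SteXh:CG42398, a Stellate-type gene that ends at 2180, to lncRNA:CR40469, a long noncoding RNA gene that starts at 122493, and the RefSeq table of release 6 places no gene in between. Its borders were chosen after the peaks were seen. It held 52 and 51 peaks in the mutants, against 66 and 71 in the controls (difference -17, two-sided exact permutation p = 0.33, no overlap). Its 91 regions included 30 in all 4 libraries. Control-only regions were 13 of the 56 called in both controls (23.2%, exact binomial 95% interval 13.0% to 36.4%), against the background of 12.2%, and mutant-only regions were 2 of 34. In the remainder of the X end, control-only regions were 3 of 33 (9.09%). With all lists scaled to the depth of mutant 1, the block had 13 control-only regions of 55 (23.6%), all 13 overlapping one of those above, against 10.9% over all main-arm regions. With lists cut to equal length it had 10 of 52 (19.2%), all 10 overlapping one of those above, against 9.46%.

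**Figure D3:**
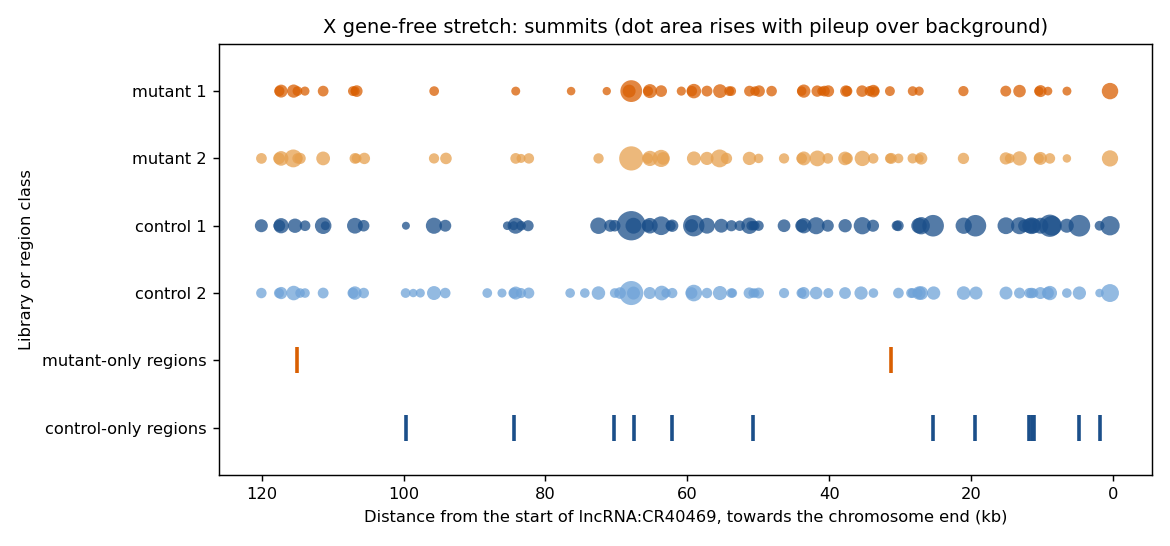
Peak summits of the 4 libraries in the X stretch without genes, by distance from the start of lncRNA:CR40469 towards the chromosome end (kb), with dot area rising with pileup over the library's background. The lower rows mark the 2 mutant-only and 13 control-only regions, of which 7 lie in the last 25.6 kb before that gene.

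The 3 widest control-only regions of X were nearly equal in height within each control. X:96931-97297 had a summit pileup of 207 in control 1 and 77 in control 2, X:102897-103268 had 206 and 73, and X:117569-117905 had 208 and 76. Divided by the library's background these pileups were 27.8, 27.7 and 28.0 in control 1 and 10.1, 9.59 and 9.99 in control 2. No peak was called there in either mutant. Control 1 was thus 2.75 to 2.89 times as high as control 2 at them, a spread within 1 genotype.

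The first pair of these regions lay 5966 bp apart, measured between summits in control 1 and again in control 2. The same step also led back to a mutant-only region. X:90961-91322, 362 bp wide and called with pileups of 24 in mutant 1 and 35 in mutant 2, starts 5970 bp before X:96931-97297, which is 367 bp wide. A region called in all 4 libraries, X:101350-101504, has a partner with both borders displaced by exactly 5966 bp, X:107316-107470. The first had pileups of 26 and 37 in the mutants, against 115 and 80 in the controls, and its partner had 30 and 44 in the mutants, against 123 and 72 in the controls. In all, 7 pairs of regions of the block started within 20 bp of this step. The other 4 were X:65174-65320 and X:71157-71329, both called in every library, X:68329-68420 and X:74315-74402, both in mutant 1 alone, X:16770-17005 (3 libraries) and X:22718-23016 (control-only), and X:109940-110147 (control 1) and X:115913-116000 (every library). The step was read from these same regions and pairs at other steps were not counted, so the count of 7 has no background beside it. Measured between the last bases of the paired regions, the step ran from 5853 to 6011 bp. Both members had the same presence in 4 of the 7 pairs. Whether these are copies of 1 sequence was not read here.

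The other control-only regions of the block were weaker. X:54814-54989 had pileups of 110 and 73 in controls 1 and 2 and starts 144 bp beyond X:54232-54670, the strongest region of the block, which was called in all 4 libraries with folds of 15.7 and 16.1 in the mutants, against 14.5 and 13.8 in the controls. X:110898-111067 had pileups of 122 and 46 in the controls, and X:110543-110783 had 97 and 43. Together with X:111196-111347, at 97 and 36, they form a cluster of 3 control-only regions within 805 bp. Of all 16 control-only regions of the X end, 15 would still have passed in both controls at the depth of mutant 1. Over all main-arm regions, control-only regions numbered 2636 as deposited and 2251 with lists at that depth. Inside genes of the X end there were 3 control-only regions: in tyn (X:194248-194364, pileups of 58 and 46), in ewg (X:276132-276238, 27 and 31) and in svr (X:499192-499297, 19 and 28).

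Regions called in every library of this block were compared by height. Of these 30, both controls exceeded both mutants in pileup over background in 10 (33.3%), against 38.9% of all 13474 main-arm regions called in every library, and both mutants exceeded both controls in 0, against 18.2%. By the authors' fold, which divides by the local background instead, both controls were higher in 6 of the 30, against 35.5% of all such regions, and both mutants in 8, against 14%. The medians of pileup over background over the 30 regions were 7.36 and 9.98 times background in mutants 1 and 2 and 14.7 and 8.61 in controls 1 and 2. Control 1 was above both mutants in 25 of the 30 regions and control 2 in 10. Over all 13474 main-arm regions called in every library, control 1 was so in 7541 and control 2 in 5960. In the remainder of the X end both mutants were higher in pileup over background in 8 of 22 regions (36.4%) and both controls in 1 (4.55%), and by fold in 5 and 3.

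The 3L end began with a series of evenly spaced peaks. It runs from 147 to 19500, outside any gene and short of mthl8, a gene of the methuselah receptor family that starts at 22428. The best common spacing of the summits, searched from 300 to 1500 bp, was 457 bp in each of the 4 libraries taken alone. Neighbouring summits lay within 20 bp of that distance in 48.0% and 46.3% of gaps in the mutants, against 65.9% and 21.9% in the controls. Outside the series this share was 1.86% to 2.47%.

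The 3L series differed between the libraries in extent and in height. It held 26 and 55 peaks in the mutants, against 42 and 33 in the controls (difference 3, two-sided exact permutation p = 1). Its 57 regions included 19 in all 4 libraries, 14 in mutant 2 alone and 10 missing in mutant 1 only. There were 0 control-only regions among the 29 called in both controls, which allows a share of up to 11.9% (exact binomial 95% interval), and 1 mutant-only region, 3L:5801-5990, with pileups of 26 in mutant 1 and 44 in mutant 2. The 14 regions of mutant 2 alone had folds of 2.195 to 3.97 and pileups of 34 to 66, with a median of 44.5, against a median of 39 over all peaks of mutant 2 in the ends.

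Whether the 3L series was higher in the mutants depended on the scale. Divided by the background of the whole library it was, and by the fold against the local background it was not. On the first scale the median over its peaks was 7.03 and 9.51 times background in mutants 1 and 2, against 6.18 and 4.86 in controls 1 and 2, without overlap (two-sided exact permutation p = 0.33). In the 19 regions called in every library the lowest, median and highest values were 5.41, 6.93 and 10.4 in mutant 1 and 7.98, 10.3 and 13.9 in mutant 2. They were 3.76, 6.18 and 7.39 in control 1 and 4.07, 4.73 and 6.18 in control 2. Both mutants exceeded both controls in 15 of the 19 (78.9%), against 18.2% over all main-arm regions called in every library, and mutant 2 did so in 19. By the authors' fold against the local background, both mutants exceeded both controls in 2 of the same 19 regions (10.5%), against 14% over all main-arm regions called in every library, and both controls exceeded both mutants in 0. Median folds of the 19 regions were 3.46 and 3.94 in the mutants, against 4.03 and 2.97 in the controls, which overlapped. The counted pileups behind these ratios, with medians of 32 and 54 in the mutants, against 46 and 36 in the controls, overlapped between the genotypes, so the separation appears after division by the library's background. No sequence was read here, and if these regions share sequence they are not independent of each other. The broad signal around the peaks moved with them: the local background that the peaks were called against was 1.95 and 3.16 times the library's background in the mutants and 1.602 and 1.725 times in the controls. Its part in the result was not tested. In the remainder of the 3L end both mutants were higher in 3 of 52 regions (5.77%) and both controls in 24 (46.2%).

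**Figure D4:**
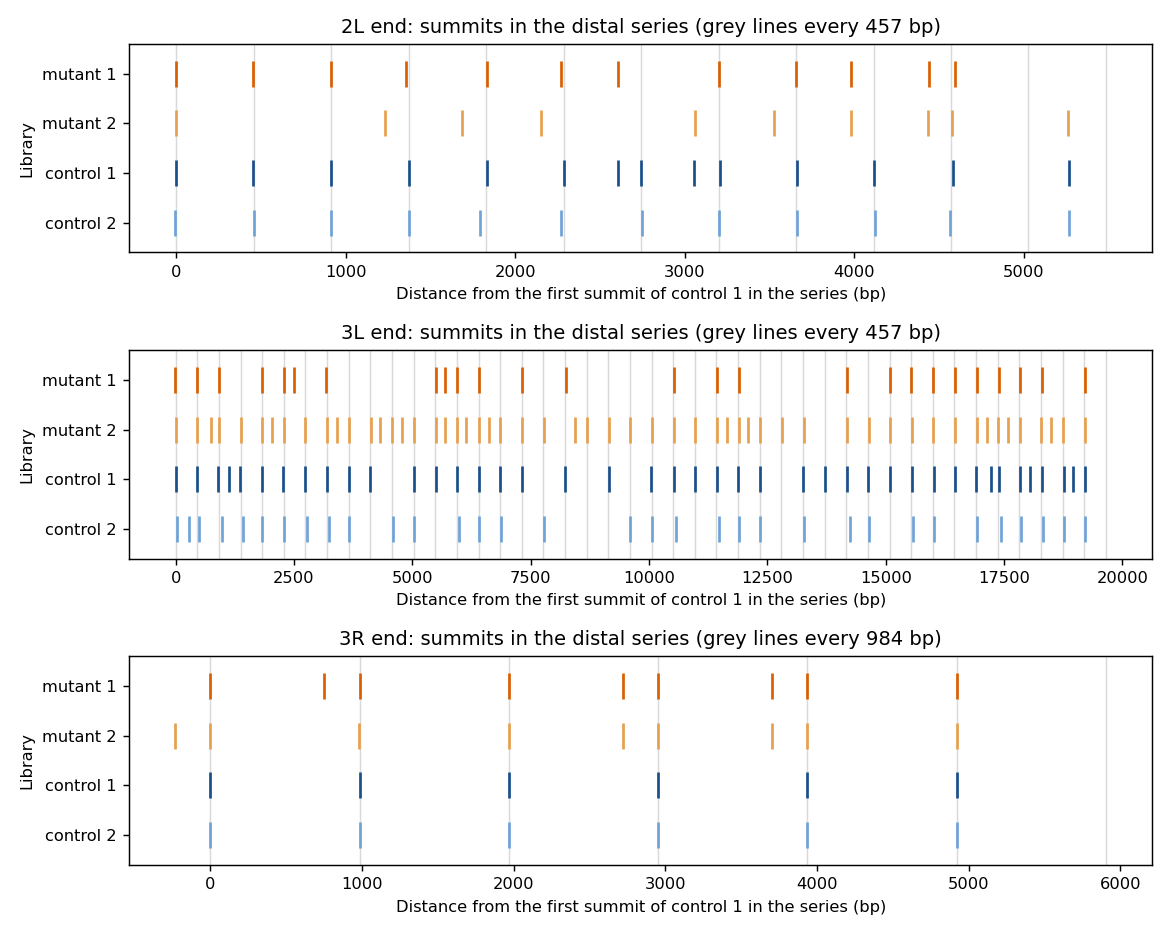
Peak summits (1 tick each) of the 4 libraries in the distal series of 2L, 3L and 3R, by distance in bp from the first summit of control 1 in the series, with grey lines at 457 bp steps for 2L and 3L and at 984 bp steps for 3R. On 3R the main summits of all libraries fall on the lines, and the extra ticks of the mutants are second peaks in the same regions.

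The 2L end began with a shorter series of the same kind. It spanned 221 to 5924, outside any gene and short of CR11023, the outermost annotated gene of that arm, which starts at 7529. It held 12 and 10 peaks in the mutants, against 14 and 12 in the controls, in 9 regions, of which 8 were called in every library. The best common spacing was 450 and 448 bp in the mutants and 454 and 457 bp in the controls. Median pileup was 8.12 and 11.8 times background in the mutants, against 9.07 and 7.75 in the controls, which overlapped (two-sided exact permutation p = 0.667). On this scale neither genotype was above the other in any of the 8 shared regions. By the authors' fold both controls were above both mutants in 1 of the 8, against 35.5% of all main-arm regions called in every library. By the pileup not divided they were so in 3 of the 8 (37.5%), against 80.6%. Both mutants were above both controls in 0 on either scale, against 14% by fold and 0.779% by the pileup not divided. The region nearest the tip, 2L:221-1059, was called in every library, with folds of 5.02 and 5.12 in the mutants, against 5.35 and 5.47 in the controls.

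The 3R end closed with 6 strong regions. Ranked by −log10 p among all main-arm peaks of a library, their peaks lay in the top 0.327% to 0.501% in control 1. In control 2 they ranked at 5.23% to 8.20%. In mutants 1 and 2 they ranked at 1.33% to 19.5% and 1.04% to 21.1%, second peaks of the same regions included. The 6 regions lay at 32073496-32078780, 5.06 kb beyond Map205, and were 361 to 368 bp wide. Map205 encodes a microtubule-associated protein and is the outermost annotated gene. All 6 were called in all 4 libraries. Their strongest summits lay 984 bp apart at every step in mutant 1 and in both controls, and 980 to 988 bp apart in mutant 2, and 6, 5 and 6 of the 6 summits in mutant 1, mutant 2 and control 2 fell on the same base as in control 1. Each mutant had 9 peaks and each control 6, but the 3 further peaks of each mutant were second summits 231 to 236 bp away within the same regions. The number of regions therefore did not differ.

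Divided by the library's background, the height of the 3R series varied more within the controls than between the genotypes. Median pileup over background at the strongest summits was 30.6 and 44.1 in the mutants, against 76.1 and 21.9 in controls 1 and 2. Within a library the 6 regions were alike, with ratios of 24.9 to 34.4 in mutant 1, 39.7 to 45.1 in mutant 2, 73.4 to 76.5 in control 1 and 20.6 to 23.4 in control 2. Controls thus stood both above and below the mutants, and over all peaks of the series the medians overlapped (28.6 and 43.2 in the mutants, 76.1 and 21.9 in the controls, two-sided exact permutation p = 1). Control 1 was also the highest library in the X stretch without genes, with a median of 11.2 times background over its peaks there, against 5.84 and 7.03 in the mutants and 6.18 in control 2. In the 3L series it was below both mutants on this scale. By the authors' fold against the local background, the libraries were close at the 6 regions of 3R. Median folds were 8.99 and 9.39 in the mutants, against 9.87 and 8.89 in controls 1 and 2. The local background of the 3R peaks was 3.23 and 4.50 times the library's background in the mutants, against 7.58 and 2.35 times in the controls.

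**Figure D5:**
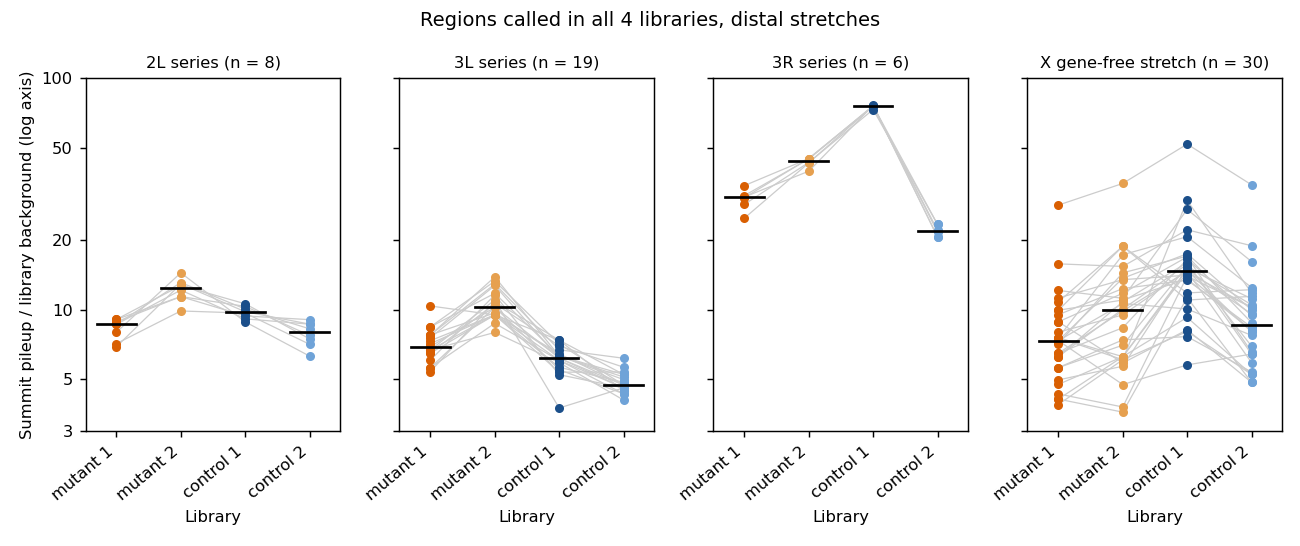
Summit pileup divided by the library's background (log axis) for regions called in all 4 libraries in the 4 distal stretches, with 1 dot per region, grey lines joining a region across libraries and black bars at the medians. On this scale both mutants lie above both controls in 15 of 19 regions of the 3L series (2 of 19 by the authors' fold), while on 3R control 1 is highest and control 2 lowest in each of the 6 regions.

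The gene-free stretch of X showed no such even spacing from 300 to 1500 bp. The search did not reach the 5966 bp step described above. The best spacing differed between the libraries, at 458 and 899 bp in the mutants and 324 and 451 bp in the controls. The mean vector length at the best spacing, which is 1 for perfectly even summits, was 0.353 and 0.409 in the mutants, against 0.363 and 0.270 in the controls. As the highest value over all spacings tried, it does not fall to 0 for summits without order. Its level for such summits was not computed. In the 3L series it was 0.847 and 0.513 in the mutants, against 0.820 and 0.897 in the controls. The region nearest the X tip, X:697-758, was called in control 1 alone, while the outermost regions of the other 3 ends were called in every library.

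Outside these stretches the ends held genes. The strongest regions among those called in every library are described here, so their presence in all 4 was given by the choice. In spen, which encodes a transcriptional regulator with RNA-binding domains, 2L:166320-167089 had folds of 22.7 and 22.4 in the mutants, against 24.0 and 23.9 in the controls. In rno, 3L:199206-199392 had folds of 16.3 and 19.99 in the mutants, against 25.2 and 21.4 in the controls. At Pdk1, which encodes a kinase of the insulin pathway, 3L:131397-131961 had folds of 17.3 and 16.2 in the mutants, against 16.1 and 15.2 in the controls. The region at CG3038 and G9a, a histone methyltransferase gene, was uneven: X:245828-246093 had a fold of 9.42 in mutant 1 and 19.6 in mutant 2, against 23.7 and 20.9 in the controls. Folds are the authors' values against the local background in each library, and serve here to describe single peaks.

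Genes that lie wholly in the ends numbered 273, of which 204 were protein coding. Of these 273, 129 and 140 had a peak within 500 bp of a gene end in the mutants, against 159 and 152 in the controls. All 4 libraries shared 107 of them, and 89 had none in any library. Genes called in both controls and neither mutant were Kaz1-ORFB, CG13877 and the antisense RNA genes asRNA:CR43609 and asRNA:CR46263, 4 of the 137 called in both controls. The reverse held for lncRNA:CR45378, 1 of the 114 called in both mutants. These were 2.92% and 0.877%, against 5.76% control-only and 1.4% mutant-only over all main-arm genes. Over all main-arm genes 46.0% and 49.7% had a peak at a gene end in the mutants, against 55.3% and 54.8% in the controls, and among the genes of the ends 47.3% and 51.3% did in the mutants, against 58.2% and 55.7% in the controls.

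Several well-known genes of the ends were counted singly. The growth suppressor gene l(2)gl, next to the 2L tip, had 4 and 6 peaks in the mutants, against 7 and 6 in the controls. The chromatin remodeller gene kis had 15 and 14 peaks in the mutants, against 13 and 14 in the controls, and 1 mutant-only region, 2L:226178-226407, with pileups of 25 in mutant 1 and 23 in mutant 2. The transcriptional repressor gene ttk had 12 and 11 peaks in the mutants, against 13 and 12 in the controls, and Map205 had 4 in every library. In heph, which encodes a polypyrimidine tract-binding protein, replicates differed more than genotypes, with 22 and 15 peaks in the mutants, against 22 and 16 in the controls. The tracheal regulator gene trh had 6 and 6 peaks in the mutants, against 3 and 7 in the controls, and held 2 of the 4 mutant-only regions of the 3L end, at 3L:369505-369645 and 3L:391557-391704, both with pileups of 17 to 22. The smo gene, which encodes the Hedgehog pathway protein Smoothened, had 1 and 2 peaks in the mutants, against 1 and 2 in the controls.

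The X end also holds erect wing, ewg, a transcription factor gene needed for flight muscle development. It had 1 and 2 peaks in the mutants and 3 in each control, and the best fold was 5.51 and 10.4 in the mutants, against 15.3 and 10.5 in the controls. Control 2 was thus close to mutant 2, and the low value was that of mutant 1. The pigmentation gene y and the proneural genes ac, sc, l(1)sc and ase, which act in the nervous system, had 0 peaks in any library. Of these, y, ac and sc lie in the almost empty stretch at 350 to 400 kb.

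Of all peaks of controls 1 and 2 in the 2L end, 24.5% and 22.1% had their summit outside genes. In the 3L end it was 48.1% and 37.0%, and in the 3R end 23.9% and 25.2%. Outside X the control-only regions were likewise mostly inside genes, and of moderate height. On 2L they lay in CG4213 (2L:402140-402348, pileups of 47 and 56 in the controls), in ush, which encodes a zinc finger cofactor (2L:489058-489144, 56 and 47), and at ND-15 and CG3625. On 3L, 9 of 11 lay in genes, among them Ptpmeg, a tyrosine phosphatase gene (3L:347395-347483, 50 and 39). On 3R, 10 of 11 lay in genes. A cluster of 3 lay in FeCH, which encodes ferrochelatase of heme synthesis, at 31810558-31810860 with pileups of 31 in each control, at 31811703-31811892 with 38 and 34 and at 31812248-31812393 with 44 and 20, and was chosen after its values were seen. Of the 11 control-only regions of 3R, 8 would still have passed in both controls at the depth of mutant 1. Over all main-arm regions the control-only count was 2636 as deposited and 2251 at that depth.

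Without the 4 distal stretches the ends held 355 and 363 peaks in the mutants, against 411 and 416 in the controls, a ratio of means of 0.868, close to the 0.869 of the rest of the arms. Control-only regions were then 29 of 296 (9.80%), against the background of 12.2%, and mutant-only regions 6 of 223 (2.69%), against 5.01%. In the 4 stretches as a whole, control-only regions were 13 of 100 (13.0%), and all 13 lay in the X stretch, with 0 of 44 in the series of 2L, 3L and 3R.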

How the data were processed

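Members and lists were chosen with earlier results of these data known. The authors deposited 1 peak list per library. Per the submitters' processing notes, bcl2fastq 2.20, cutadapt 2.3, Bowtie2 2.4.1, Picard, MACS2 2.2.7.1 and MultiQC 1.5 were used with build BDGP6, with no settings named. The treatment of reads that match several places is not given in the sources used here. The deposited fold enrichment (a ratio), −log10 p and −log10 q compare a peak with that library's background, and the deposited score repeats −log10 q and was not used.

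Intervals of the 4 lists on the main arms that shared at least 1 bp were merged, and a library had a region when any of its peaks lay in it. Rank is by −log10 p within a list. Read depth is not stated, so pileup and local background were solved from fold and −log10 p under a Poisson model, which gave a whole-number pileup within 0.001 for 99.9% or more of each list, and the commonest local background served as the background of the library. The solution, the merging and the spacing search recovered known answers on simulated data. For lists at equal depth, pileups and backgrounds were scaled to mutant 1 and peaks below its lowest −log10 p were dropped, and lists of equal length were cut to the 25528 best by −log10 p.

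Samples were grouped by the labelled genotype and numbered by the labelled replicate. Values per library were compared by two-sided exact permutation of the 6 labelings, and counts of regions were set beside the background without a test. Genes came from a RefSeq table (assembly Release 6 plus ISO1 MT), which holds 17673 main-arm genes. Hemese, a hemocyte marker, was not matched. Named regions are the 10 best-ranked control-only and 9 mutant-only ones, the outermost of each end, the 3 best-ranked shared ones per end and the nearest genes, with a list of genes at the ends; further ones were named after their values were seen. Not every one is described. Borders of the distal stretches were chosen after seeing the peaks. Same-numbered libraries did not deviate together in presence calls (correlation over regions of the differences between replicates 1 and 2, -0.0908). This 1 value cannot show whether same-numbered samples were prepared together, which the labels do not say. The main tests left the samples unpaired. Python 3.11.15 with numpy 2.4.6, pandas 2.3.3 and scipy 1.17.1 was used.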

Additional observations from a re-analysis of the deposited data

How the results depend on the processing

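With 2 libraries per genotype no difference could reach p below 0.33, and the exact test could not tell any of them from the spread between libraries. Libraries with a lower background pileup had fewer called peaks, and presence is a threshold on height. Of 156 values under alternative settings, 107 were counted as the same, 42 moved and 7 reversed, and the causes were not tested. A difference in peaks or in percent of peaks counted as the same whenever its sign was kept, however far its size moved. On 3R, -2 with lists at equal depth was thus counted as the same as -14. Other values counted as the same within the spread or within 1.5 times the main value. Values with the replicate number used as a block, where differences are unchanged by construction, are among the 107. With equal-length lists the difference in peaks was 1.5 on 2L and 2.5 on 3R, against -9.5 and -14 as deposited. Over the 4 ends it was -13.5 with equal-length lists and -41.5 with lists at equal depth, against -67.5 as deposited. The difference in the percent of peaks in the ends, 0.0107 percentage points as deposited, was -0.0529 with equal-length lists, -0.0174 with lists at equal depth and -0.0120 with ends of 1 Mb. In the 4 ends, mutant-only regions were 4 at a −log10 q of at least 5, 31 with a reciprocal overlap of at least 50% and 22 with summits joined within 150 bp, against 9. As a percent of regions of both mutants they were 11.4% and 7.21% under the last 2 settings, and control-only regions were 15.03% of those of both controls with the reciprocal overlap. Control-only regions on 2L were 8 at a −log10 q of at least 5 and 15 with the reciprocal overlap, against 4, and those on 3R were 7 with equal-length lists, against 11. In the X stretch without genes, under alternatives chosen after seeing the data, there were 10 control-only regions with equal-length lists, 11 at a −log10 q of at least 5, 14 with the reciprocal overlap and 13 under the other settings without a library left out. The 15 of 19 regions of the 3L series with both mutants above both controls, also examined under alternatives chosen after seeing the data, were 2 by the deposited fold and 0 by the pileup not divided by any background, on which both controls were higher in 80.6% of all such main-arm regions.

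Leaving out 1 library at a time gave differences in peaks of -84.5 to -50.5 over the 4 ends, -16.5 to -2.5 on 2L, -43 to -5 on 3L, -19 to -9 on 3R and -25.5 to -14.5 on X. The percent in the ends differed by -0.0390 to 0.0605. With 1 library of a genotype left, specific regions are easier to obtain: control-only regions were 59 to 126 in the 4 ends (14.9% to 29.8% of those of the controls), 8 to 29 on 2L, 16 to 42 on 3L, 15 to 34 on 3R, 20 to 33 on X and 17 to 23 in the X stretch, and mutant-only regions were 21 to 83 (6.98% to 19.7%). The regions of the 3L series with mutants above controls were 15 to 19. On 3L the range rests on mutant 1: without mutant 1 the difference was -5.

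With the replicate number used as a block, the differences in peaks were unchanged by construction (-67.5 over the 4 ends, -9.5 on 2L, -24 on 3L, -14 on 3R and -20 on X, each with an exact sign-flip p = 0.5, the smallest that 2 pairs allow, and 0.0107 for the percent in the ends, exact p = 1). The block changed no call.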

Other observations

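Summits outside annotated genes made up 33.0% and 37.7% of the peaks of the ends in the mutants, against 39.1% and 36.1% in the controls, which overlapped (two-sided exact permutation p = 0.667). In the rest of the main arms the shares were 27.6% and 34.2% in the mutants, against 33.4% and 29.8% in the controls. The X end stood highest, with 62.8% and 55.7% in the mutants, against 63.1% and 64.3% in the controls. The 3L end varied by library, with 36.2% and 49.4% in the mutants, against 48.1% and 37.0% in the controls. On X the Jaccard index of called base pairs was 0.521 between the mutants and 0.633 between the controls, and mutant 1 shared 0.408 with control 1 and 0.393 with control 2.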
